A study of Homo sapiens with 12 samples.

Results

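N/TERT-2G cells, an immortalised line of human skin keratinocytes, that had received siRNA against APOE were compared directly with cells that had received siRNA against CXCL14. All genes of the count table were used, and the control libraries stayed out of the test. The comparison takes 6 of the 12 libraries of the series: 3 with APOE siRNA and 3 with CXCL14 siRNA. The other libraries, 3 with a negative control siRNA and 3 with ATF3 siRNA, were not tested here, and control levels are printed only as a description. In all groups, per the labels, 100 pmol of siRNA was delivered with 5 μl of the lipid reagent Lipofectamine 2000 per well of 6-well plates, and the medium was replaced after 6 h. The siRNA sequences and the time from transfection to RNA extraction are not given in the sources used here. Poly-A RNA was sequenced in bulk. The labels do not say that the replicates were separate cultures, so the p-values measure only the spread between these libraries, which may be technical.

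APOE is the apolipoprotein by which lipoprotein particles bind receptors of the LDL receptor family, and in keratinocytes, as in other cells, it is a target of the oxysterol receptors LXR. CXCL14 is a small chemokine that epithelia, among them the epidermis, secrete in the resting state. Basal keratinocytes divide and express KRT5 and KRT14. Cells that leave the basal layer switch to other keratins and build the cornified envelope, and in wounded or inflamed skin KRT6, KRT16 and KRT17, the stress keratins, come on instead.

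The 6 libraries held 16598426 to 21377538 counts, so that 3 counts, the limit that a count of 0 allows, correspond to 0.137 to 0.191 CPM, the counts scaled to a common library size. Only counting error enters this limit and the counting intervals below. The share of mitochondrially encoded transcripts was 2.51 to 2.76% with APOE siRNA and 2.10 to 2.21% with CXCL14 siRNA, and the 10 most abundant genes took 8.32 to 8.70% and 5.80 to 6.01%. Across genes, which are not independent replicates, log2(CPM + 1) correlated at 0.994 to 0.996 within a group and at 0.959 to 0.964 between the groups. Keratinocyte markers were present in every library, with KRT5 at 18733, 17219.6 and 18246 CPM with APOE siRNA and 8817, 8894 and 9212 CPM with CXCL14 siRNA. Of the markers of other cells, PTPRC, CD3E, MS4A1, CD207, LYZ and HLA-DRA of immune cells, CDH5 of endothelium, TYR of melanocytes and DCD, SCGB2A2 and AQP5 of sweat gland had no count in any of the 6 libraries. Other markers in those lists had counts. Summed over each list, with APOE siRNA and with CXCL14 siRNA, the 11 immune markers were at 6.21 to 6.61 and 1.32 to 2.03 CPM, the 7 endothelial markers at 1.27 to 2.05 and 1.44 to 2.23 CPM, and the 7 melanocyte markers at 3.11 to 3.999 and 6.64 to 6.84 CPM. The 7 markers of sweat gland and simple epithelium were at 749 to 863 and 855 to 1038 CPM. KDR of endothelium (log2 fold change -1.26), MITF of melanocytes (-1.86) and 2 of the 3 tested markers of sweat gland and simple epithelium were called lower with APOE siRNA. CD14 of immune cells (2.29) and COL1A1 of fibroblasts (2.40) were called higher, and the other 2 tested melanocyte markers were not called. Of all tested genes, 28.0% were called lower and 29.3% higher. The part of such cells in the results was not tested.

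Both siRNA targets differed in the direction of the labels. APOE (ENSG00000130203, chromosome 19, 44905754 to 44909393, hg38) stood at 0.107, 0.277 and 0.191 CPM with APOE siRNA and 5.56, 5.82 and 6.42 CPM with CXCL14 siRNA. The groups did not overlap, and the difference, as the log2 fold change of APOE siRNA over CXCL14 siRNA with its SE, was -4.91 ± 0.28, edgeR adjusted p = 1.10e-07. The summed counts were 10 and 351, a depth-scaled ratio of 0.0320 with a 95% exact counting interval of 0.0152 to 0.0595. CXCL14 (ENSG00000145824, chromosome 5, 135570679 to 135579279) stood at 12.5, 4.33 and 9.02 CPM with APOE siRNA and 0.0534, 0.0549 and 0 CPM with CXCL14 siRNA. Its difference was 7.73 ± 0.67, edgeR adjusted p = 2.37e-06, from 454 counts against 2, a ratio of 255 with a counting interval of 70.1 to 2108. The 3 libraries with APOE siRNA varied widely in CXCL14, and the lowest of them was still far above every library with CXCL14 siRNA. In the control libraries APOE was at 3.23 ± 0.411 CPM (SD, n = 3) and CXCL14 at 0.498 ± 0.169 CPM, so that for each target the control mean lay between the groups compared here. Each target stood above its control mean in the other group, at a mean of 5.93 CPM for APOE and 8.61 CPM for CXCL14. The ratios are thus not the size of a knockdown against the control, which was not tested. ATF3 (ENSG00000162772, chromosome 1, 212565334 to 212620777) is a stress-induced transcription factor and the third target of the series. It stood at 42.9, 39.3 and 44.5 CPM with APOE siRNA and 64.9, 72.1 and 69.8 CPM with CXCL14 siRNA (-0.71 ± 0.07, edgeR adjusted p = 8.34e-06). The control libraries had 42.9 ± 1.70 CPM of ATF3, near the APOE siRNA libraries and below the CXCL14 siRNA libraries. Exact two-sided permutation of the CPM gave p = 0.1 for each of these 3 genes, the smallest p that 3 libraries against 3 allow.

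The groups differed across most of the expressed genes. Of 14464 genes with enough counts to test, 12444 of them protein-coding, 8292 were called at an adjusted p under 0.05, which is 57.3%. Of these, 4245 were higher with APOE siRNA (29.3% of tested genes) and 4047 were lower (28.0%). Many of the differences were small: the median size among called genes was 0.61 on the log2 scale. A difference of at least 2-fold was called for 2116 genes (14.6%), 1174 higher (8.12%) and 942 lower (6.51%), and one of at least 4-fold for 393 (2.72%), 190 higher (1.31%) and 203 lower (1.4%). The CPM of the groups did not overlap for 9144 genes (63.2%), with APOE siRNA above in 4646 (32.1%) and below in 4498 (31.1%). Over all tested genes the median log2 fold change was -0.000286. With library sizes alone as the scaling that median moved to -0.12, and 3326 genes were called higher and 5174 lower, so that the share of higher calls went from 51.2% to 39.1%. Calls were less frequent at low levels, at 26.7% of the genes under 1 CPM against 66.0% of those between 10 and 100 CPM. The first principal component of the 6 libraries separated the groups and took 84.0% of the variance.

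**Figure D1:**
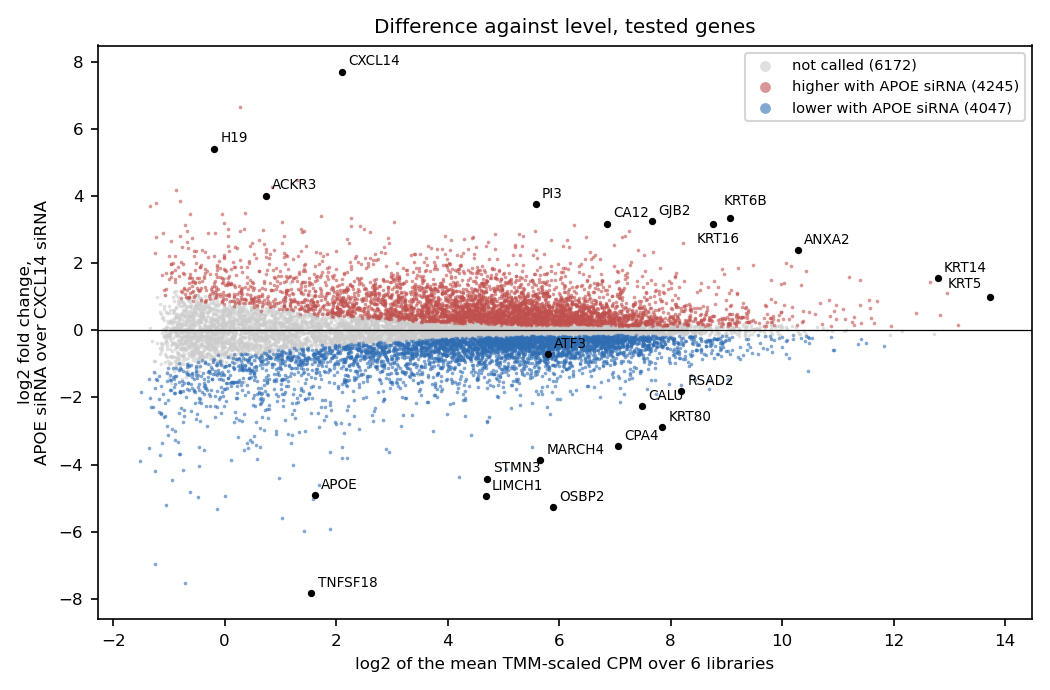
Difference against level for the 14464 tested genes. The x axis is the log2 of the mean TMM-scaled CPM over the 6 libraries, the y axis the log2 fold change of APOE siRNA over CXCL14 siRNA, each point is a gene, and black points are named. The 4245 genes called higher and the 4047 called lower spread over the whole range of levels, with abundant keratins such as KRT6B (log2 fold change 3.36) on the upper side and OSBP2 (-5.27) on the lower.

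The genes named below follow a rule on size, adjusted p and list membership, given with the processing. IL6, KRT1, MMP9, AXIN2, S100A8, S100A9, TGM1, TOP2A, MKI67, CENPF, TP63, COL1A1, RNASE7, PADI3, IL36G, FBN1, CDH2, COL8A1, ITGA3, COL17A1, SCARB1, CD14, NOTCH1, MCM6, IFI35, OAS3, CXCL8, CXCL10 and KRTDAP were added after their values were seen. Levels are TMM-scaled CPM, given per library or as mean ± SD (n = 3), and are compared only within a gene. For each list below, counts of called members stand against 29.3% of all tested genes called higher and 28.0% called lower. The lists were not matched to all tested genes for level. Because RNA was measured in bulk, fewer cells of a kind and less RNA per cell cannot be told apart in any of these results. Without a stated strand setting, values are uncertain for genes that overlap a gene on the opposite strand with a level of at least 10% of their own: ACAT2, ACSS2, ADAM17, ATP5MF, CCNA2, DAZAP2, DCBLD1, ERBB2, GPX2, IFIT2, PLTP, PSME2, RNASE7 and RSAD2. Genes with near-identical copies, the KRT6 and KRT14/KRT16/KRT17 keratins, SPRR1A and SPRR1B, AKR1C1 and AKR1C3, MT1E and MT1X and the histone genes, may exchange reads.

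All stress keratins were higher with APOE siRNA. KRT6B (ENSG00000185479, chromosome 12, 52446651 to 52452126), a keratin of wounded and inflamed skin, had the smallest adjusted p of all genes, with 977, 959 and 1007 CPM with APOE siRNA and 93.8, 96.2 and 96.4 CPM with CXCL14 siRNA (3.36 ± 0.05, edgeR adjusted p = 4.08e-11). KRT16 stood at 911, 691 and 744 CPM with APOE siRNA and 89.9, 80.2 and 90.9 CPM with CXCL14 siRNA (3.17 ± 0.10, edgeR adjusted p = 2.53e-09). In both genes every library with APOE siRNA was several times above every library with CXCL14 siRNA. KRT6C (2.83 ± 0.10) and KRT6A (1.46 ± 0.05) were higher too, and KRT17 completed the list at 1.11, so that all 5 were called higher, with a median log2 fold change of 2.83 where the median of all tested genes was near 0. KRT6A stood at 9740.1, 9165 and 9367 CPM with APOE siRNA and 3466, 3397 and 3408 CPM with CXCL14 siRNA. The control libraries stood at 658 ± 17.1 CPM for KRT6B and at 177 ± 25.5 CPM for KRT16, between the 2 groups for each gene.

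Antimicrobial proteins and alarmins, which keratinocytes release at barrier injury, were also higher with APOE siRNA. Of 20 symbols in this list 11 could be tested, and 10 were called higher and 1 lower, with a median of 1.90, where 29.3% of all tested genes were called higher. PI3 (ENSG00000124102, chromosome 20, 45174876 to 45176544), the elastase inhibitor elafin, stood at 93.9, 84.4 and 88.8 CPM with APOE siRNA and 7.64, 5.60 and 6.37 CPM with CXCL14 siRNA (3.77 ± 0.10, edgeR adjusted p = 1.06e-09). SLPI, a secreted inhibitor of leukocyte proteases, stood at 95.01, 83.4 and 85.3 CPM with APOE siRNA and 18.1, 17.3 and 18.4 CPM with CXCL14 siRNA (2.29 ± 0.08, edgeR adjusted p = 3.06e-09). The libraries of each group lay close together, and the groups were far apart in both inhibitors. S100A8 (2.55 ± 0.14) and S100A9 (1.69 ± 0.10), the subunits of calprotectin, were higher as well, and so were HMGB1 (1.79 ± 0.09) and HMGB2 (1.61 ± 0.07), chromatin proteins that act as alarmins when released. RNASE7, an antimicrobial ribonuclease of skin, was the member that went the other way, with 35.5, 42.8 and 40.2 CPM with APOE siRNA and 80.6, 81.9 and 77.5 CPM with CXCL14 siRNA (-1.02 ± 0.08, edgeR adjusted p = 8.14e-07). The control libraries had 12.2 ± 0.276 CPM of PI3 and 31.4 ± 0.416 CPM of SLPI, nearer to the CXCL14 siRNA libraries. On the log2 scale the control mean was nearer to CXCL14 siRNA in 6 of the 11 tested members and to APOE siRNA in 5. Relative to the control means, the list's median was 1.04 with APOE siRNA and -0.85 with CXCL14 siRNA, with no test against the control.

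Differentiation genes were higher with APOE siRNA in most of their tested members. Among spinous and early differentiation genes 20 of 26 tested members were higher with APOE siRNA and 2 were lower, and the median log2 fold change was 0.94. Among cornified envelope and late differentiation genes the corresponding numbers were 20 and 3 of 31, with a median of 0.91. Both lists stand against 29.3% higher and 28.0% lower among all tested genes. On the log2 scale the control mean was nearer to CXCL14 siRNA in 18 of the 26 and 20 of the 31. Over all tested genes this share was 41.6%. Relative to the control means, the spinous median was 0.90 with APOE siRNA and 0.02 with CXCL14 siRNA. The cornified median was 0.91 and 0.18, with no test against the control. IVL (ENSG00000163207, chromosome 1, 152908545 to 152911886), the envelope precursor involucrin, stood at 78.4, 63.5 and 64.5 CPM with APOE siRNA and 12.9, 11.5 and 11.4 CPM with CXCL14 siRNA (2.53 ± 0.10, edgeR adjusted p = 9.54e-09). SPRR1B, a small proline-rich protein cross-linked into the envelope, stood at 163, 124 and 128 CPM with APOE siRNA and 19.2, 13.7 and 13.8 CPM with CXCL14 siRNA (3.15 ± 0.14, edgeR adjusted p = 2.06e-08). Neither gene had overlapping groups. TGM1, the transglutaminase that cross-links the envelope, was at 48.1 ± 4.43 against 11.03 ± 2.22 CPM (2.13 ± 0.13, edgeR adjusted p = 1.50e-07), and CERS3, a ceramide synthase of the barrier, at 30.1 ± 1.40 against 7.77 ± 0.612 CPM (1.95 ± 0.09, edgeR adjusted p = 2.98e-08).

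DSC3, a desmosomal cadherin, stood at 577, 487 and 469 CPM with APOE siRNA and 91.9, 85.4 and 75.9 CPM with CXCL14 siRNA (2.60 ± 0.09, edgeR adjusted p = 5.57e-09) and DSC2, of the same family, at 221 ± 22.1 against 69.9 ± 1.40 CPM (1.66 ± 0.07, edgeR adjusted p = 2.02e-08). GJB2 (ENSG00000165474, chromosome 13, 20187463 to 20193010), the gap junction protein connexin 26, stood at 379, 339.9 and 391 CPM with APOE siRNA and 43.3, 34.3 and 38.7 CPM with CXCL14 siRNA (3.25 ± 0.09, edgeR adjusted p = 1.28e-09). KRT1, the keratin that opens spinous differentiation, was nearly silent: its summed counts were 130 with APOE siRNA and 1 with CXCL14 siRNA, a ratio of 146 with a 95% counting interval of 25.7 to 5802, and its CPM of 4.64, 1.33 and 1.21 with APOE siRNA show that 1 library gave most of them. KRTDAP, a secreted protein of differentiating keratinocytes, was at 13.2 ± 2.19 against 1.95 ± 0.221 CPM (2.77 ± 0.17, edgeR adjusted p = 1.77e-07). PADI3, which converts arginine to citrulline in late differentiation, was lower with APOE siRNA, at 1.16 ± 0.342 against 4.80 ± 0.215 CPM (-2.02 ± 0.22, edgeR adjusted p = 1.41e-05).

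Basal keratinocyte genes were on the same side. KRT14 stood at 10663, 10155 and 10915 CPM with APOE siRNA and 3547, 3481 and 3791 CPM with CXCL14 siRNA (1.55 ± 0.05, edgeR adjusted p = 3.45e-09), and KRT5, at the levels given above, differed by 1.01 ± 0.05, edgeR adjusted p = 2.84e-08. TP63, the transcription factor of the epidermal lineage, was at 402 ± 16.3 against 163 ± 12.4 CPM (1.30 ± 0.07, edgeR adjusted p = 4.06e-08), and COL7A1, the collagen of anchoring fibrils, at 1827 ± 199.9 against 477 ± 34.8 CPM (1.94 ± 0.08, edgeR adjusted p = 1.61e-08). In this list 15 of 23 tested members were higher with APOE siRNA and 5 were lower, against 29.3% and 28.0% of all tested genes. The median log2 fold change was 0.65. The lower members were led by the integrin ITGA3 (-0.58 ± 0.05), and COL17A1, a hemidesmosomal collagen, was lower by a small amount (-0.24 ± 0.04). The summed level of 8 keratinocyte markers, KRT5 and KRT14 among them, was 37527 to 39546 CPM with APOE siRNA, 19982.5 to 20927 CPM with CXCL14 siRNA and 29521 to 32214 CPM in the control libraries. Since KRT5 and KRT14 make up most of that sum, it is not a separate measure of how many cells were keratinocytes, and a part of cell composition in these differences was not tested. CD14, a lipopolysaccharide co-receptor and the 1 immune marker of 11 with enough counts to test, was higher with APOE siRNA, at 5.93 ± 0.171 against 1.20 ± 0.202 CPM (2.29 ± 0.19, edgeR adjusted p = 1.50e-06).

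**Figure D2:**
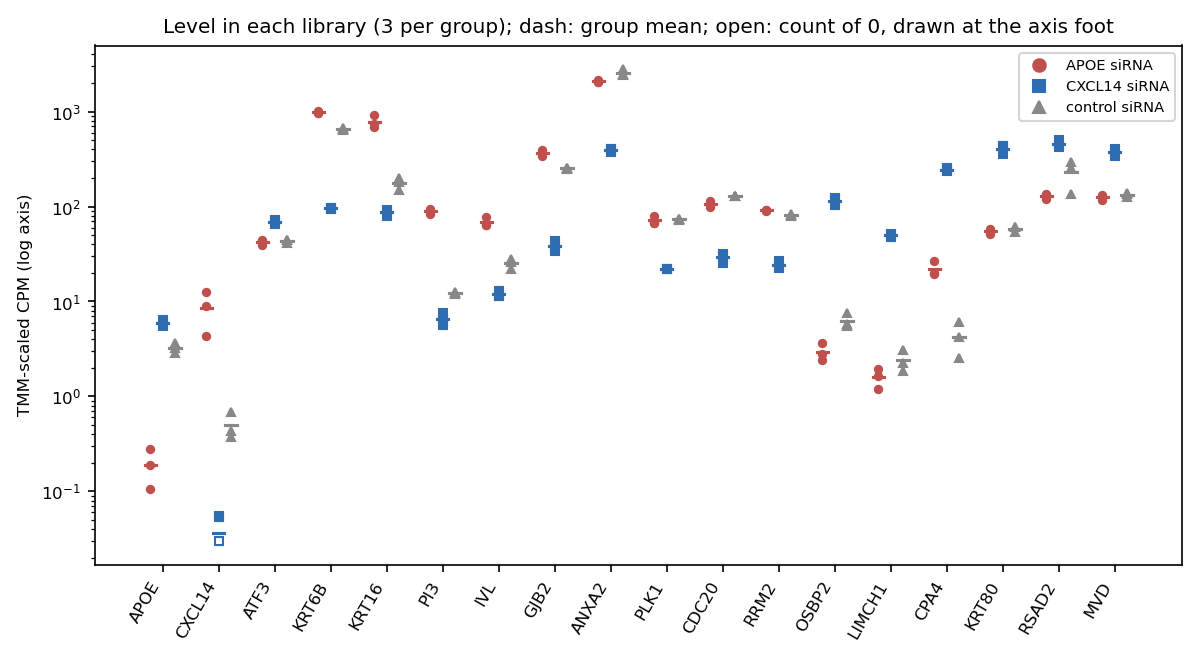
Level of 18 named genes in each library. The y axis is TMM-scaled CPM on a log axis, circles are the 3 APOE siRNA libraries, squares the 3 CXCL14 siRNA libraries and triangles the 3 control siRNA libraries, dashes are group means, and an open symbol at the foot is a count of 0. Circles and squares are apart for every gene drawn, from KRT6B (977, 959 and 1007 against 93.8, 96.2 and 96.4 CPM) to OSBP2 (3.68, 2.44 and 2.80 against 105, 119 and 122 CPM), while the control lies near either group or between them depending on the gene.

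Genes of mitosis were higher with APOE siRNA almost throughout. Of 47 tested members 44 were called higher, 34 of them by at least 2-fold, and 0 lower, with a median log2 fold change of 1.31. At least 2-fold higher were 8.12% of all tested genes. CDC20, the activator of the anaphase-promoting complex, stood at 100.1, 103 and 114 CPM with APOE siRNA and 31.5, 25.6 and 30.4 CPM with CXCL14 siRNA (1.85 ± 0.09, edgeR adjusted p = 2.59e-08). PLK1, a kinase that drives mitotic entry, stood at 67.8, 66.8 and 79.3 CPM with APOE siRNA and 22.2, 21.9 and 21.98 CPM with CXCL14 siRNA (1.69 ± 0.08, edgeR adjusted p = 2.84e-08). AURKB, the kinase of the chromosomal passenger complex, was at 33.95 ± 1.13 against 9.23 ± 0.957 CPM (1.88 ± 0.09, edgeR adjusted p = 3.89e-08), and CCNA2, the cyclin of S and G2 phase, at 71.9 ± 3.19 against 22.5 ± 1.99 CPM (1.68 ± 0.08, edgeR adjusted p = 2.70e-08). TOP2A (1.92 ± 0.12) and MKI67 (1.15 ± 0.14), which mark dividing cells, went the same way. CENPF, a kinetochore protein, had the largest difference of the list (2.26 ± 0.17), and the 3 members that did not pass included MYBL2 at -0.04.

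DNA replication genes followed with smaller differences: 37 of 43 tested members were higher with APOE siRNA and 2 were lower. Over all tested genes the shares were 29.3% and 28.0%. The list's median log2 fold change was 0.76. RRM2, the small subunit of ribonucleotide reductase, stood at 91.7, 90.2 and 91.4 CPM with APOE siRNA and 26.7, 22.5 and 23.2 CPM with CXCL14 siRNA (1.92 ± 0.08, edgeR adjusted p = 9.54e-09). CDT1 (1.79 ± 0.11) and CDC6 (1.49 ± 0.09), which load the replicative helicase, were higher as well, whereas the helicase subunit MCM6 was lower (-0.39 ± 0.11). MCM6 was at 19.1 ± 1.83 CPM with APOE siRNA and 24.8 ± 3.04 CPM with CXCL14 siRNA. Its control level, 69.7 ± 0.557 CPM, was above both groups. For these lists the control libraries lay mostly with the APOE siRNA libraries: on the log2 scale the control mean was nearer to the APOE siRNA mean in 45 of 47 mitosis genes and in 40 of 43 replication genes, against 58.4% of all tested genes. Relative to the control means, the median of the mitosis genes was -0.36 with APOE siRNA and -1.65 with CXCL14 siRNA on the log2 scale, and that of the replication genes was -0.24 and -1.04. These ratios are descriptions, with no test of either siRNA against the control.

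Promoters of 3 of the mitosis genes are shown for the CCAAT box, the binding motif of the factor NF-Y. The table of RefSeq promoters (GRCh38.p14) held 40 of the tested mitosis genes, and 30 of them (75%) had CCAAT, read on both strands, between 250 bases before and 50 after the start. Of 10263 tested genes with a promoter there, 36.4% had it. The 200 bases before the start are given on the strand of the gene, 5′ to 3′, with the motif in capitals, as ATTGG where it lies on the other strand. They cover chr1:43358781-43358980 (plus strand) for CDC20, chr4:121823884-121824083 (minus strand) for CCNA2 and chr16:23678689-23678888 (plus strand) for PLK1.
CDC20: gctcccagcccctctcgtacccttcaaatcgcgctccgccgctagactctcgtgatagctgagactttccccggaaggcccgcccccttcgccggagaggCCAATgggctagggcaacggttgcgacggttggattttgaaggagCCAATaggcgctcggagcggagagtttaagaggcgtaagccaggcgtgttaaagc
CCNA2: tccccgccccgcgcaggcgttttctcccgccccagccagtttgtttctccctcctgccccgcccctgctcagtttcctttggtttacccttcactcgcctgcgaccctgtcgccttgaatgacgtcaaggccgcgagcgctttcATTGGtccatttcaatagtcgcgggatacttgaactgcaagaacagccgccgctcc
PLK1: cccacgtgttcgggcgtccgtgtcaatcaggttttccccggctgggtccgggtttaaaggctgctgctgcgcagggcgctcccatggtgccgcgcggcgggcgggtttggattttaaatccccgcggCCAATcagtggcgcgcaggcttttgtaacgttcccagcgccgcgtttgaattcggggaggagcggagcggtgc
CDC20 carries the motif at 2 places and CCNA2 and PLK1 at 1 each. They have the smallest adjusted p among called members with a usable promoter and the motif in this stretch. Each shown promoter therefore had to carry the motif. These matches describe letters, not bound sites, and this pair of list and motif was chosen from 8 motifs after the shares were seen. Higher shares were found in the unfolded protein response genes (85.7% of 21), whose tested members went in both directions, and in the cholesterol synthesis genes (78.9% of 19), of which 21 of 26 tested were lower with APOE siRNA.

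Interferon-stimulated genes, which cells switch on when interferon or foreign nucleic acid is sensed, were lower with APOE siRNA than with CXCL14 siRNA. Of 47 tested members 30 were called lower and 6 higher, with a median of -0.47, where 28.0% of all tested genes were called lower. RSAD2 (ENSG00000134321, chromosome 2, 6865806 to 6898239), the antiviral enzyme viperin, stood at 132, 119 and 134 CPM with APOE siRNA and 503, 427 and 433 CPM with CXCL14 siRNA (-1.82 ± 0.08, edgeR adjusted p = 1.33e-08). GBP1, an interferon-induced GTPase, stood at 49.6, 42.6 and 48.5 CPM with APOE siRNA and 157, 146 and 148 CPM with CXCL14 siRNA (-1.68 ± 0.07, edgeR adjusted p = 1.38e-08). IFIT2 was at 106 ± 4.22 against 247 ± 17.1 CPM (-1.22 ± 0.07, edgeR adjusted p = 6.37e-08), and OAS3, which makes the activator of the antiviral RNase L, at 813 ± 27.7 against 1425 ± 81.6 CPM (-0.81 ± 0.06, edgeR adjusted p = 4.51e-07). The members called higher differed little, up to 0.44 in IFI35 (0.44 ± 0.06). The control mean was nearer to the APOE siRNA mean in 24 members and nearer to the CXCL14 siRNA mean in 23, and the control libraries themselves were spread, with RSAD2 at 229 ± 84.3 CPM.

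Sensors of double-stranded RNA and DNA showed the same side. This list shares members with the interferon-stimulated genes, so it is not a separate result. In this list 4 of 19 tested members were higher with APOE siRNA and 11 were lower, against 29.3% and 28.0% of all tested genes. The median log2 fold change was -0.35. DDX58, which encodes the RNA sensor RIG-I and belongs to both lists, stood at 96.2, 87.97 and 90.2 CPM with APOE siRNA and 238, 209 and 208 CPM with CXCL14 siRNA (-1.26 ± 0.07, edgeR adjusted p = 8.10e-08). IFIH1, which encodes the RNA sensor MDA5 and is also in both lists, stood at 155, 153 and 158 CPM with APOE siRNA and 288, 262 and 278 CPM with CXCL14 siRNA (-0.83 ± 0.06, edgeR adjusted p = 3.32e-07). TMEM173, the adaptor STING of DNA sensing, was at 14.2 ± 1.10 against 50.3 ± 2.61 CPM (-1.82 ± 0.08, edgeR adjusted p = 2.24e-08). PYCARD, the inflammasome adaptor, was higher with APOE siRNA, at 21.1 ± 1.14 against 9.76 ± 0.650 CPM (1.11 ± 0.10, edgeR adjusted p = 2.34e-06). Genes of MHC class I antigen presentation were divided, with 9 of 20 called higher and 5 lower: the peptide transporter TAP1 was lower (-0.69 ± 0.05), while the proteasome activator PSME2 (1.05 ± 0.06) and the trimming peptidase ERAP2 (0.73 ± 0.06) were higher.

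Promoters of 3 interferon-stimulated genes are shown for the core of the interferon-stimulated response element, searched as GAAA, any 2 bases and GAAA. Of 36 members with a promoter from RefSeq, 24 (66.7%) had the core on either strand in the same window, against 2.87% of the 10263 tested genes. This pair was also chosen after the shares were seen. The 200 bases before the start lie at chr1:89065209-89065408 (minus strand) for GBP1, chr2:162318685-162318884 (minus strand) for IFIH1 and chr12:112938274-112938473 (plus strand) for OAS3, with the core in capitals, and as its reverse complement where it is on the other strand.
GBP1: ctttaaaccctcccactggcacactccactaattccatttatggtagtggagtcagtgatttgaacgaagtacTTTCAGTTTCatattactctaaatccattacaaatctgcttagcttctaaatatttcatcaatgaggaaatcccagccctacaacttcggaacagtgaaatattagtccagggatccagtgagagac
IFIH1: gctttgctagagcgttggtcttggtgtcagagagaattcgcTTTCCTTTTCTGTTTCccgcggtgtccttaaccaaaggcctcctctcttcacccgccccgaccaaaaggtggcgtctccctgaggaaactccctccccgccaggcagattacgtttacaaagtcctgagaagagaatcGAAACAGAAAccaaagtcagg
OAS3: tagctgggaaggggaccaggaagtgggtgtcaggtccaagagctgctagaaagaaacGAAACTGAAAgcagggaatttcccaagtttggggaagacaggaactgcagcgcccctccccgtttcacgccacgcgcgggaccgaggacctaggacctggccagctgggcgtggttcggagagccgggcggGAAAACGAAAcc
GBP1 has 1 match in this stretch, IFIH1 has 3, of which the first and second overlap, and OAS3 has 2. These genes have the smallest adjusted p among called members with a usable promoter and the core in this stretch. Each shown promoter therefore had to carry the core. The list was drawn up from genes known to respond to interferon, so the share describes the list and not the difference between the groups.

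**Figure D3:**
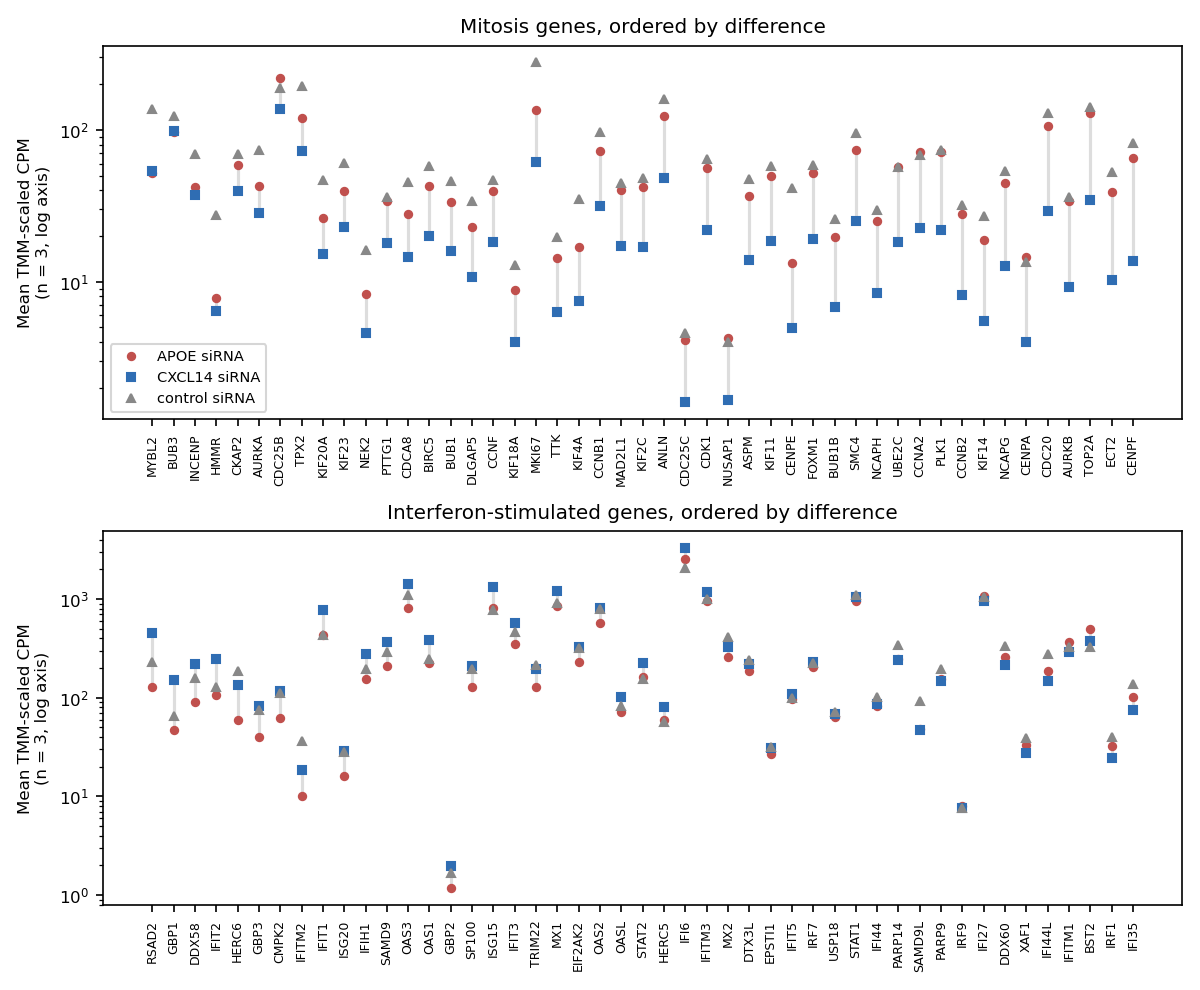
Group means of the 47 tested mitosis genes (upper panel) and the 47 tested interferon-stimulated genes (lower panel). The y axis is the mean TMM-scaled CPM of 3 libraries on a log axis, circles are APOE siRNA, squares CXCL14 siRNA and triangles control siRNA, a grey line joins the 2 groups compared, and genes are ordered from the most negative to the most positive log2 fold change of APOE siRNA over CXCL14 siRNA. In the upper panel the control lies near or above the APOE siRNA mean for most genes, and the circles are above the squares in the 44 genes called higher. In the lower panel the squares are above the circles in the 30 genes called lower.

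Genes of cholesterol synthesis, which are switched on together when sterols run low, were lower with APOE siRNA. Of 26 tested members 21 were called lower and 3 higher, with a median of -0.53, where 28.0% of all tested genes were called lower. MVD, which forms isopentenyl pyrophosphate, stood at 118, 125 and 131 CPM with APOE siRNA and 338, 387 and 408 CPM with CXCL14 siRNA (-1.60 ± 0.08, edgeR adjusted p = 2.72e-08). HMGCS1, the synthase ahead of the rate-limiting step, stood at 187, 181 and 189 CPM with APOE siRNA and 549, 488 and 501 CPM with CXCL14 siRNA (-1.46 ± 0.06, edgeR adjusted p = 1.03e-08). In both genes the highest library with APOE siRNA was well below the lowest with CXCL14 siRNA. ACAT2, which makes acetoacetyl-CoA, was lower too (-1.06 ± 0.06). SQLE, the squalene epoxidase of the same pathway, went against the list, with 338, 314 and 347 CPM with APOE siRNA and 137, 126 and 130.2 CPM with CXCL14 siRNA (1.34 ± 0.06, edgeR adjusted p = 2.03e-08). Control means were nearer to APOE siRNA in 20 of the 26 tested members, against 58.4% of all tested genes. MVD was among them, at 132 ± 6.70 CPM in the control. HMGCS1 was not, at 450 ± 43.2 CPM, nearer to CXCL14 siRNA. Relative to the control means, the list's median was -0.11 with APOE siRNA and 0.46 with CXCL14 siRNA, with no test against the control.

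The family of APOE itself, lipoproteins with their receptors and LXR targets, had members on both sides. In this list, which holds APOE, 6 of 26 tested members were higher with APOE siRNA and 13 were lower. Over all tested genes the shares were 29.3% and 28.0%. The list's median log2 fold change was -0.27. PLTP, a phospholipid transfer protein and LXR target, was the highest, with 154, 152 and 167 CPM with APOE siRNA and 31.8, 29.1 and 32.3 CPM with CXCL14 siRNA (2.34 ± 0.07, edgeR adjusted p = 1.80e-09). APOL2 (-2.03 ± 0.08) and APOL1 (-1.36 ± 0.06), intracellular and secreted relatives of the apolipoprotein L family that also respond to interferon, were lower, with APOL2 at 25.4, 27.2 and 23.5 CPM with APOE siRNA and 113, 98.8 and 100.3 CPM with CXCL14 siRNA. SCARB1, the HDL receptor, was higher (1.07 ± 0.06). Of 26 tested fatty acid synthesis genes 9 were called higher and 9 lower (34.6% each), not far from the shares over all tested genes. The median of these genes, 0.08, turned to -0.04 with library sizes alone. ACSS2, which makes acetyl-CoA from acetate, was lower (-1.64 ± 0.07), whereas fatty acid synthase FASN (0.76 ± 0.05), the malic enzyme ME1 (1.03 ± 0.06) and the acyltransferase GPAM (1.45 ± 0.10) were higher.

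Cytokines did not move as a block. Of 27 tested cytokine and NF-kB genes 13 were called higher and 11 lower, against 29.3% and 28.0% of all tested genes. IL1A, the interleukin that keratinocytes store and release on damage, stood at 232, 242 and 247 CPM with APOE siRNA and 102, 91.4 and 96.7 CPM with CXCL14 siRNA (1.32 ± 0.06, edgeR adjusted p = 2.16e-08). IL1B (1.15 ± 0.07), IL36G (2.99 ± 0.33) and the granulocyte growth factor CSF3 (1.70 ± 0.12) were higher as well, with CSF3 at 35.7, 51.1 and 46.6 CPM with APOE siRNA and 12.9, 14.2 and 13.97 CPM with CXCL14 siRNA. IL6 was close to the limit of detection with APOE siRNA, with 3 counts over 3 libraries against 115 with CXCL14 siRNA, a depth-scaled ratio of 0.0293 with a 95% counting interval of 0.00595 to 0.0877. TNFSF18, the ligand of GITR, a receptor on T cells, had 1 count against 350, a ratio of 0.00320 with an interval of 8.09e-05 to 0.0180. TNFSF15, a cytokine of the same superfamily, was at 1.86 ± 0.416 against 10.6 ± 0.0488 CPM (-2.51 ± 0.17, edgeR adjusted p = 3.40e-07).

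Among 12 tested chemokines and chemokine receptors, CXCL14 included, 4 were called higher (33.3%) and 3 lower (25.0%), near the 29.3% and 28.0% of all tested genes. ACKR3, a scavenging receptor of chemokines, stood at 3.09, 3.05 and 3.30 CPM with APOE siRNA and 0.0534, 0.275 and 0.228 CPM with CXCL14 siRNA (4.03 ± 0.36, edgeR adjusted p = 3.20e-06). CCL20, which attracts CCR6-bearing lymphocytes, was at 5.01 ± 0.302 against 1.60 ± 0.340 CPM (1.64 ± 0.20, edgeR adjusted p = 2.96e-05). CCL5, an interferon-responsive chemokine, was lower, at 2.39 ± 0.224 against 6.74 ± 1.26 CPM (-1.50 ± 0.19, edgeR adjusted p = 3.90e-05). CXCL8 (0.53 ± 0.22, edgeR adjusted p = 0.0610) and CXCL10 (0.13 ± 0.22, edgeR adjusted p = 0.642) did not pass, at mean levels under 6 CPM in each group, and CXCL8 passed under 5 of the alternatives, the replicate block among them (edgeR adjusted p = 0.0246).

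Matrix, protease and wound-edge genes contained some of the larger differences on both sides, with 15 of 37 called higher and 16 lower. Over all tested genes the shares were 29.3% and 28.0%. INHBA (ENSG00000122641, chromosome 7, 41667168 to 41705834), a subunit of activin, stood at 248, 279 and 240.3 CPM with APOE siRNA and 38.04, 37.3 and 34.1 CPM with CXCL14 siRNA (2.81 ± 0.08, edgeR adjusted p = 1.06e-09). ITGB6, the integrin subunit of wound-edge keratinocytes, was at 353 ± 15.1 against 95.97 ± 6.37 CPM (1.88 ± 0.06, edgeR adjusted p = 4.15e-09). TGFBI, a matrix protein induced by TGF-beta, stood at 1690.4, 1691 and 1826 CPM with APOE siRNA and 409, 425 and 447 CPM with CXCL14 siRNA (2.02 ± 0.06, edgeR adjusted p = 1.29e-09). MMP9, a gelatinase, was low in both groups, at 4.74 ± 0.694 against 0.208 ± 0.0661 CPM (4.49 ± 0.30, edgeR adjusted p = 3.07e-07). COL1A1, a collagen of fibroblasts, was higher too (2.40 ± 0.10), and it accounts for most of the summed level of 10 fibroblast markers, 84.7 to 94.5 CPM with APOE siRNA, 21.8 to 29.3 CPM with CXCL14 siRNA and 35.3 to 46.1 CPM in the control. None of the 10 was at 0 in all 6 libraries, 3 could be tested, and DCN, a fibroblast proteoglycan, did not pass at -0.24. The part of other cells in the COL1A1 difference was not tested.

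Genes of the same list that were lower with APOE siRNA included collagen and microfibril genes. COL8A1 stood at 6.77, 6.21 and 7.88 CPM with APOE siRNA and 47.4, 46.1 and 42.4 CPM with CXCL14 siRNA (-2.71 ± 0.10, edgeR adjusted p = 6.68e-09), and FBN1, which encodes fibrillin-1, at 7.72 ± 0.793 against 45.9 ± 5.10 CPM (-2.57 ± 0.11, edgeR adjusted p = 1.49e-08). CDH2, N-cadherin, was at 0.260 ± 0.217 against 2.84 ± 0.496 CPM (-3.47 ± 0.41, edgeR adjusted p = 2.72e-05). In TGF-beta and BMP signalling 15 of 30 tested genes were called higher and 6 lower, against 29.3% and 28.0% of all tested genes. ID1, an inhibitor of bHLH factors and BMP target, stood at 82.6, 83.6 and 87.04 CPM with APOE siRNA and 12.7, 9.77 and 10.2 CPM with CXCL14 siRNA (2.95 ± 0.09, edgeR adjusted p = 2.33e-09), and the receptor TGFBR2 was higher (0.92 ± 0.05) while the co-receptor TGFBR3 was lower (-2.01 ± 0.14).

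Of 23 tested Notch pathway genes 14 were called higher and 0 lower, with a median of 0.39. The shares over all tested genes were 29.3% and 28.0%, here and for the lists that follow. NOTCH3 stood at 300.1, 291 and 271 CPM with APOE siRNA and 55.7, 58.8 and 47.2 CPM with CXCL14 siRNA (2.42 ± 0.08, edgeR adjusted p = 4.15e-09). The ligand JAG1 (0.78 ± 0.06), the sheddase ADAM17 (0.73 ± 0.06) and HES2 (0.98 ± 0.05), a member of the Hes family, were higher, whereas NOTCH1 did not pass (-0.11 ± 0.08, edgeR adjusted p = 0.237). With the replicate block NOTCH1 was called lower (edgeR adjusted p = 0.00170), and 2 members of the list were. With library sizes alone 3 members were called lower, NOTCH1 among them. Of all 14464 tested genes, 4716 were called lower with the replicate block and 5174 with library sizes alone. NRF2 targets, genes of the antioxidant response, were called higher in 20 of 30 tested members and lower in 5. Among them GPX2 stood at 9.06, 10.8 and 9.15 CPM with APOE siRNA and 1.07, 0.933 and 1.32 CPM with CXCL14 siRNA (3.11 ± 0.18, edgeR adjusted p = 1.21e-07), and the aldo-keto reductases AKR1C1 (2.52 ± 0.09) and AKR1C3 (1.61 ± 0.08) went the same way. ABCC3 was the lowest of the NRF2 targets, at a log2 fold change of -1.22. Among glucocorticoid-responsive genes 11 of 17 were called higher and 3 lower, with the metallothioneins MT1X (2.52 ± 0.10) and MT1E (1.22 ± 0.06) higher. The lowest member of that list was SGK1, at a log2 fold change of -1.04.

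Growth factor and immediate early genes were divided. The shares over all tested genes were 29.3% called higher and 28.0% called lower. EGFR ligands and ERK feedback genes had 12 of 27 called higher and 9 lower, with the ligand EREG (1.53 ± 0.08), the EGFR inhibitor ERRFI1 (1.15 ± 0.05) and the phosphatase DUSP7 (1.21 ± 0.06) higher and the receptor ERBB2 lower (-1.24 ± 0.06). AP-1 and immediate early genes had 12 of 26 called higher and 6 lower. EGR1 was at 102 ± 12.2 against 25.5 ± 1.23 CPM (1.99 ± 0.09, edgeR adjusted p = 2.27e-08) and JUNB at 412 ± 28.5 against 132 ± 2.92 CPM (1.64 ± 0.06, edgeR adjusted p = 7.49e-09), while CYR61, a matricellular protein, was at 277 ± 30.4 against 763 ± 62.7 CPM (-1.46 ± 0.09, edgeR adjusted p = 1.22e-07). Among Wnt genes 12 of 33 were called higher (36.4%) and 9 lower (27.3%), near the shares over all tested genes. Their median of 0.10 turned to -0.02 with library sizes alone. AXIN2, a feedback target of Wnt signalling, was higher at low level (1.78 ± 0.540 against 0.161 ± 0.149 CPM, 3.49 ± 0.51, edgeR adjusted p = 1.32e-04), as was the receptor FZD7 (1.68 ± 0.19), and the inhibitor DKK1 was lower (-1.26 ± 0.06).

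Stress response lists had members on both sides, where 29.3% of all tested genes were called higher and 28.0% lower. Integrated stress response and ATF4 targets had 21 of 44 called higher and 13 lower, with a median of 0.17, MTHFD2 (0.86 ± 0.06) and DDIT4 (0.82 ± 0.05) higher and PPP1R15A (-0.93 ± 0.07) and PSAT1 (-0.67 ± 0.06) lower. The unfolded protein response had 10 of 23 higher and 8 lower, with the chaperone HSPA5 higher (0.77 ± 0.05) and HERPUD1 lower (-1.29 ± 0.07). Its median of 0.10 turned to -0.01 with library sizes alone. Of 23 heat shock and chaperone genes 6 were higher and 13 lower. The small heat shock protein HSPB1 stood at 2182, 1981 and 2287 CPM with APOE siRNA and 573, 625 and 681 CPM with CXCL14 siRNA (1.78 ± 0.07, edgeR adjusted p = 1.30e-08), against the median of -0.24 for its list. Of 34 p53 targets 13 were higher, among them CCNG1 (0.99 ± 0.07), and 17 lower, among them AEN (-0.75 ± 0.06). Hypoxia and glycolysis genes had 19 of 41 higher, with the glucose transporter SLC2A1 (0.95 ± 0.06) and NDRG1 (1.09 ± 0.06) among them, and 10 lower, with SLC2A3 (-0.97 ± 0.06). Their median of 0.01 turned to -0.11 with library sizes alone.

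Of 13 mitochondrially encoded genes 9 were called higher and 0 lower, by up to 0.47 in MT-CO1 (0.47 ± 0.05), next to the higher share of mitochondrial counts in the APOE siRNA libraries given above. With library sizes alone 5 were higher and 1 lower, and with the replicate block 1 was lower. Nuclear-encoded oxidative phosphorylation genes were lower in 23 of 74 (31.1%) and higher in 13, near the 28.0% of all tested genes called lower, with ATP5MF lowest, at 14.6, 12.6 and 14.1 CPM with APOE siRNA and 67.4, 59.5 and 67.6 CPM with CXCL14 siRNA (-2.24 ± 0.09, edgeR adjusted p = 8.45e-09). The median of that list, -0.04, was 0.01 without CXCL14 siRNA replicate 1. Of 79 cytosolic ribosomal protein genes 53 did not pass, 19 were higher and 7 lower. The median, 0.06, turned to -0.06 with library sizes alone, with 9 higher and 24 lower. With the replicate block 33 were higher and 15 lower. The background of these fits differs from that of the main test. Of all 14464 tested genes, 3326 were higher and 5174 lower with library sizes alone. With the replicate block 4946 were higher and 4716 lower. RPS7 stood apart from them, with 405, 399 and 412 CPM with APOE siRNA and 131, 129 and 139 CPM with CXCL14 siRNA (1.60 ± 0.05, edgeR adjusted p = 3.57e-09). Of 18 tested replication-dependent histone genes, whose main transcripts lack a poly-A tail, 8 were lower and 2 higher, and of 35 lysosome genes 15 were lower and 8 higher. The shares over all tested genes were 28.0% lower and 29.3% higher. The RNA interference machinery, through which siRNA acts, had 7 of 14 members called higher and 2 lower, with DICER1 at 0.71 ± 0.11 and TNRC6A at -0.62 ± 0.08. DROSHA (0.26 ± 0.07) did not pass with library sizes alone (edgeR adjusted p = 0.105).

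**Figure D4:**
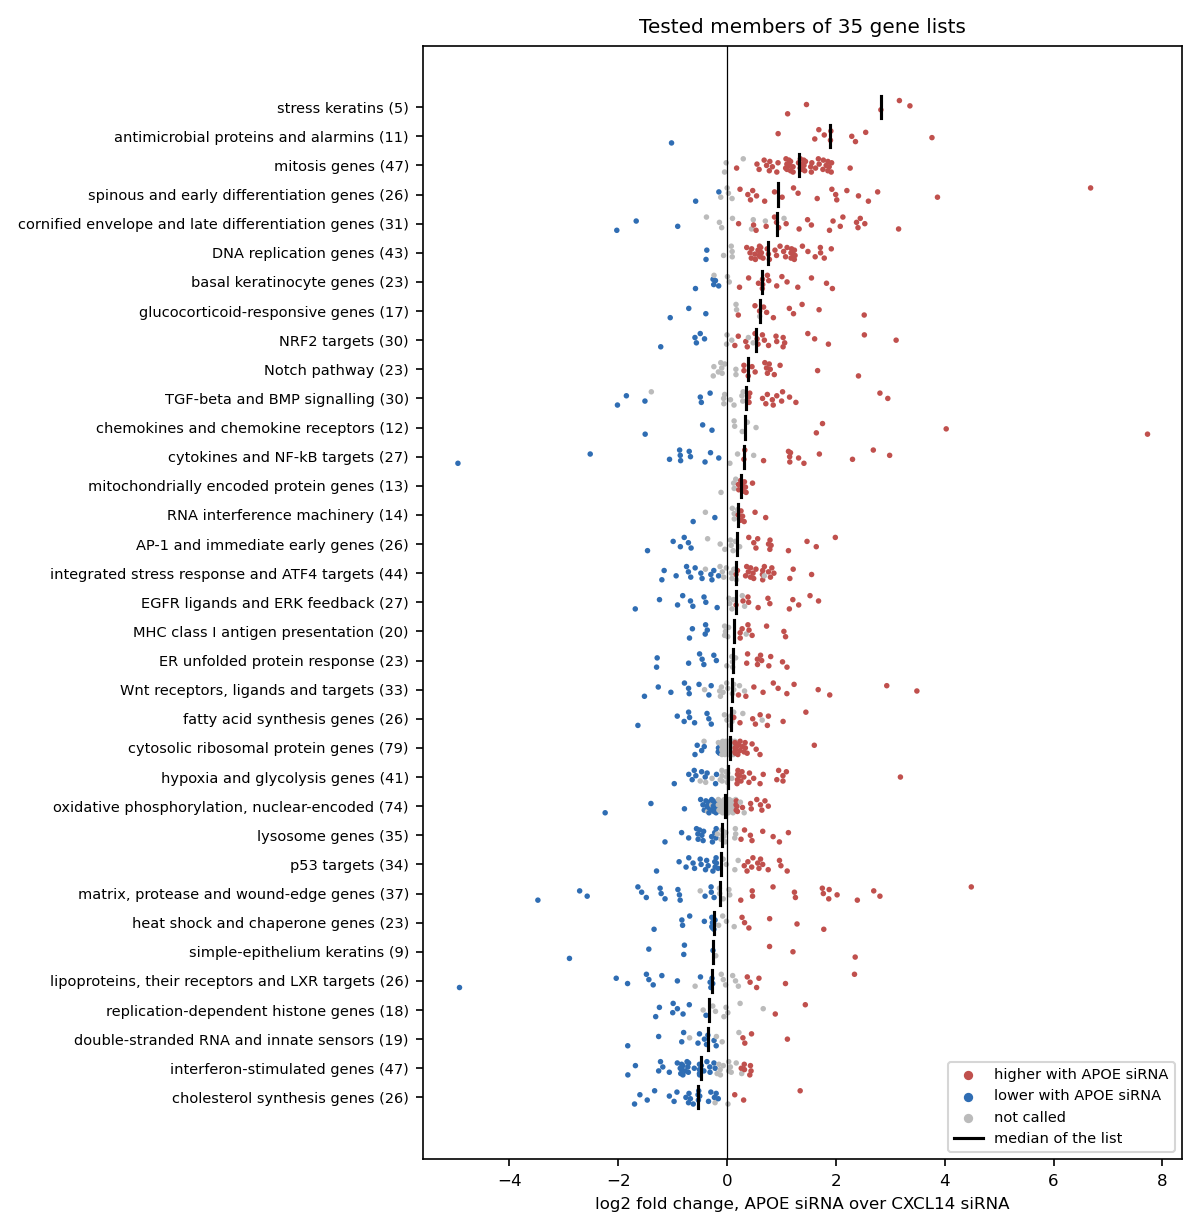
Log2 fold change of APOE siRNA over CXCL14 siRNA for the tested members of 35 gene lists. Each point is a gene, coloured by whether it was called higher, called lower or not called, the number of tested members is in parentheses, and a black bar marks each list's median. Stress keratins (median 2.83), antimicrobial proteins (1.90) and mitosis genes (1.31) are at the top, and interferon-stimulated (-0.47) and cholesterol synthesis genes (-0.53) at the foot.

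Among single genes, the largest differences on the lower side were mostly in genes outside these lists. OSBP2 (ENSG00000184792, chromosome 22, 30693782 to 30907824), a member of the oxysterol-binding protein family, stood at 3.68, 2.44 and 2.80 CPM with APOE siRNA and 105, 119 and 122 CPM with CXCL14 siRNA (-5.27 ± 0.12, edgeR adjusted p = 4.30e-10). LIMCH1, an activator of non-muscle myosin, stood at 1.65, 1.94 and 1.21 CPM with APOE siRNA and 50.00, 51.7 and 47.9 CPM with CXCL14 siRNA (-4.94 ± 0.13, edgeR adjusted p = 6.38e-10). MARCH4, a membrane-bound ubiquitin ligase, stood at 6.40, 6.88 and 6.16 CPM with APOE siRNA and 89.9, 98.5 and 95.7 CPM with CXCL14 siRNA (-3.87 ± 0.08, edgeR adjusted p = 2.45e-10). The 3 genes were low in all APOE siRNA libraries and high in all CXCL14 siRNA libraries, with control means of 6.26 ± 1.11, 2.40 ± 0.625 and 32.8 ± 1.19 CPM. CPA4, a secreted carboxypeptidase, was at 22.1 ± 3.80 against 243 ± 8.46 CPM (-3.46 ± 0.10, edgeR adjusted p = 1.80e-09) with a control mean of 4.26 ± 1.75 CPM, below both groups. KRT80, a type II keratin, was at 54.9 ± 3.59 against 408 ± 43.02 CPM (-2.89 ± 0.09, edgeR adjusted p = 1.80e-09).

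STMN3, a microtubule-destabilising stathmin, stood at 1.65, 2.66 and 2.73 CPM with APOE siRNA and 48.7, 49.8 and 51.6 CPM with CXCL14 siRNA (-4.42 ± 0.13, edgeR adjusted p = 1.86e-09). MAPK8IP2, a scaffold of JNK signalling, was at 3.56 ± 0.381 against 62.4 ± 8.29 CPM (-4.13 ± 0.13, edgeR adjusted p = 2.31e-09). UNC13A, which primes synaptic vesicles (-5.99 ± 0.37), the vesicle protein SYP (-5.03 ± 0.28) and the dopamine receptor DRD2 (-4.61 ± 0.26) were under 0.4 CPM in each library with APOE siRNA and above 4 CPM in each with CXCL14 siRNA. DISP2 (-4.37 ± 0.19), of the Dispatched family, and the scavenger receptor DMBT1 (-5.92 ± 0.37) complete the largest 12 on the lower side with APOE and TNFSF18. More abundant genes with small adjusted p on that side were CALU, a calcium-binding protein of the secretory pathway (-2.27 ± 0.06), DAZAP2 (-2.14 ± 0.06) and APMAP (-1.99 ± 0.06).

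On the higher side, beside the keratins and PI3, the carbonic anhydrase CA12 stood at 219.7, 204 and 206 CPM with APOE siRNA and 23.9, 23.9 and 21.4 CPM with CXCL14 siRNA (3.19 ± 0.07, edgeR adjusted p = 2.45e-10). ANXA2, a calcium-dependent membrane-binding protein, stood at 2072, 2059.9 and 2132 CPM with APOE siRNA and 408, 379.6 and 401 CPM with CXCL14 siRNA (2.40 ± 0.05, edgeR adjusted p = 2.45e-10). For ANXA2 the control mean, 2569 ± 209.6 CPM, was nearer to that with APOE siRNA. HR, a corepressor needed for hair growth, was at 216 ± 2.02 against 36.7 ± 0.940 CPM (2.56 ± 0.06, edgeR adjusted p = 2.50e-10), and DCBLD1, a transmembrane protein, at 245 ± 6.79 against 35.6 ± 1.21 CPM (2.78 ± 0.06, edgeR adjusted p = 2.45e-10). Less abundant genes with large differences were CDH16, a cadherin of kidney (3.42 ± 0.32), the secretory chaperone SCG5 (3.36 ± 0.20), ADAMTSL4 (3.24 ± 0.17) and the transcription factor FOXA2 (3.11 ± 0.20).

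As a description, the control means were also placed against both groups. Of the 1174 genes at least 2-fold higher with APOE siRNA, the control mean was nearer on the log2 scale to the APOE siRNA mean in 73.3%, and of the 942 genes at least 2-fold lower in 54.5%, against 58.4% of all tested genes. The control mean lay between the groups in 691 of the higher and in 652 of the lower genes. It lay above both groups in 400 of the higher and below both in 183 of the lower.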

How the data were processed

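The members and the gene lists were chosen with earlier results of these data known. The authors deposited raw counts per gene, made with HISAT2 2.0.5 and featureCounts 1.5.0-p3 on hg38, per the submitters' processing notes, and FPKM values of the same genes and libraries. Columns were mapped by target name and replicate number, with 0 unmapped. The labels' library text mentions directional as well as non-directional preparation, and no source used here states whether counting used strand.

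Counts of the 6 libraries were passed through filterByExpr and TMM scaling, which left 14464 of 58735 genes with 99.9% of the counts. They were tested by quasi-likelihood in edgeR 4.0.16 (R 4.3.3), with Benjamini-Hochberg adjustment over all tested genes and a call at an adjusted p under 0.05. Log2 fold changes are APOE siRNA over CXCL14 siRNA, and the SE is the log2 fold change over the root of F, without sign. Control levels were put on the same scale with the same TMM reference library.

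In 8 draws of simulated counts with 200 changed genes, 84.0 to 95.0% of the 2-fold and 99.0 to 100% of the 4-fold changes were recovered. The changed genes were drawn only from genes above a limit on mean count, so the recovery does not cover the lowest tested genes. Of the calls, 6.31 to 11.1% (median 9.00%) were false, above the nominal 5%: unchanged genes were at p under 0.05 in 4.49 to 5.18% of cases, but at p under 0.001 in 0.119 to 0.217%. The simulation changed 200 of 14464 genes, whereas 57.3% were called in the data. The share of false calls depends on that fraction and does not carry over to the data. An earlier version of this simulation was set to stop above 10% of false calls and did stop, and the limit was then dropped in favour of the recovery and the rate at 0.05. The test was kept as planned.

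Named genes are the 3 targets, the 12 largest differences and the 8 smallest adjusted p per direction among called protein-coding genes with at least 5 CPM in 1 group and groups that do not overlap, the 3 largest per direction among other genes with at least 1 CPM, and up to 4 called members per list. These are 166 genes, and 40 were added after their values were seen. Some of them are not reported here. The main test did not pair libraries by replicate number, and the replicate block is the alternative that does. Deviations from the group means correlated at 0.38, 0.18 and 0.38 in same-numbered libraries, so the main test leaves out a pairing that may exist. The 17 alternatives covered scaling, filters, DESeq2 1.42.0, limma 3.58.1 (voom, and log2 of the deposited FPKM + 1 or + 0.1), all 12 libraries, the replicate block, a robust fit added after seeing the data, and each library left out. Replicate pairs differed by 5.29 to 10.7 times the counting variance, so no library was a copy of another. Promoter sequences are from RefSeq on GRCh38.p14, and 142 of the 206 named genes had one.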

Additional observations from a re-analysis of the deposited data

How the results depend on the processing

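The number of called genes, 8292, ran from 7431 to 9662 over the 17 alternatives, and every called gene that an alternative tested kept its sign there. Leaving out each library in turn gave 7431 to 7900 calls, 3792 to 4081 of them higher and 3621 to 3929 lower, with 2067 to 2147 of at least 2-fold. APOE ran from -5.29 to -4.62 and CXCL14 from 7.14 to 8.11 in those fits. With the replicate block, which uses the pairing of the libraries by number, 9662 genes were called, and no named gene lost its call. The count of genes with at least a 2-fold difference, 2116, was 1410 with the stricter filter, which tests fewer genes (11545), and 791 with limma on log2(FPKM + 1), where the added 1 shrinks the difference of low genes. With log2(FPKM + 0.1) it was 1740. The robust fit, chosen after seeing the data, called 8314 genes, and the Wald test of DESeq2 called 7681. Of the 206 named genes, DROSHA lost its call with library sizes alone (0.14), and CXCL10, not called, ran from -0.077 without APOE siRNA replicate 1 to 0.30 without CXCL14 siRNA replicate 1. NOTCH1 and CXCL8, not called, passed in 2 and 5 alternatives. Genes under 3 counts per library, and CXCL14 with CXCL14 siRNA among them, are at the limit of this depth. Whether the self-test's excess of false calls holds in these libraries was not tested.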

Other observations

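The genes in this section, other than the non-coding ones, were chosen after their values were seen. They form no list, and genes of the same kind were not counted over all tested genes. L1CAM, a neural adhesion molecule, stood at 16.05, 18.1 and 16.1 CPM with APOE siRNA and 67.6, 80.3 and 77.4 CPM with CXCL14 siRNA (-2.16 ± 0.09, edgeR adjusted p = 1.04e-08). CELSR3, a cadherin of axon guidance, stood at 19.1, 22.1 and 15.2 CPM with APOE siRNA and 91.7, 103 and 80.5 CPM with CXCL14 siRNA (-2.28 ± 0.13, edgeR adjusted p = 8.86e-08), and in both genes the groups did not overlap. BDNF, a neurotrophin, was at 0.767 ± 0.233 against 5.72 ± 0.485 CPM (-2.87 ± 0.23, edgeR adjusted p = 1.26e-06), and SYT1, the calcium sensor of synaptic vesicles, at 1.96 ± 0.278 against 6.20 ± 0.362 CPM (-1.65 ± 0.17, edgeR adjusted p = 9.29e-06). REST, which represses neuronal genes in other tissues, was higher with APOE siRNA, with 76.7, 71.4 and 65.1 CPM with APOE siRNA and 44.9, 43.1 and 31.7 CPM with CXCL14 siRNA (0.84 ± 0.12, edgeR adjusted p = 1.05e-04). A relation between REST and these genes was not tested, and REST, SHLD2, IFNK and AC008897.3 overlap a gene on the opposite strand, which leaves their values uncertain.

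Some genes were near the control level with APOE siRNA and low with CXCL14 siRNA. CPD, a carboxypeptidase of the Golgi, stood at 123, 121 and 121 CPM with APOE siRNA and 20.2, 20.1 and 16.2 CPM with CXCL14 siRNA (2.70 ± 0.09, edgeR adjusted p = 2.33e-09), with 126 ± 9.68 CPM in the control. GRSF1, a mitochondrial RNA-binding protein, was at 157 ± 14.05 against 22.6 ± 3.20 CPM (2.80 ± 0.10, edgeR adjusted p = 6.68e-09), with 128 ± 1.88 CPM in the control. MRPL45, a mitochondrial ribosomal protein, was at 51.1 ± 2.84 against 6.99 ± 0.897 CPM (2.87 ± 0.10, edgeR adjusted p = 4.15e-09), and SHLD2, a subunit of shieldin, at 34.2 ± 0.824 against 5.13 ± 0.589 CPM (2.74 ± 0.10, edgeR adjusted p = 6.11e-09). IFNK, the type I interferon of keratinocytes, was also in this group, with 38.5, 38.05 and 38.9 CPM with APOE siRNA and 6.78, 5.49 and 4.64 CPM with CXCL14 siRNA (2.78 ± 0.12, edgeR adjusted p = 1.43e-08) and 40.6 ± 5.34 CPM in the control. It was thus lower with CXCL14 siRNA, while 30 of 47 tested interferon-stimulated genes were higher there. Whether one siRNA also acts on transcripts other than its target was not tested. PIK3R1, the regulatory subunit of PI3 kinase, was at 269.6 ± 28.2 against 34.8 ± 6.31 CPM (2.96 ± 0.12, edgeR adjusted p = 1.23e-08), with the control between the groups at 98.1 ± 4.37 CPM.

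The share of called genes was 37.7% of 416 tested lincRNAs, 29.4% of 530 antisense RNAs and 24.2% of 360 processed pseudogenes, and 61.2% of the 12444 protein-coding genes. The difference between these shares was not tested, and their levels were not matched. H19, an imprinted long non-coding RNA, had 92 counts with APOE siRNA and 2 with CXCL14 siRNA, a depth-scaled ratio of 51.6 with a 95% counting interval of 13.9 to 432. AC068057.1 (3.14 ± 0.47) and AC137936.2 (3.02 ± 0.39) were higher as well. On the lower side OR10AC1, an olfactory receptor pseudogene, stood at 7.52, 7.71 and 7.37 CPM with APOE siRNA and 75.3, 89.05 and 86.7 CPM with CXCL14 siRNA (-3.47 ± 0.09, edgeR adjusted p = 7.86e-10), IMPDH1P5 differed by -3.52 ± 0.36, and AC008897.3 had 3 counts against 67, a ratio of 0.0502 with an interval of 0.0101 to 0.153.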
